A study of Mus musculus with 12 samples.

Results

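The Schlafen family was followed through tumours formed by MC38, a colon cancer line of the mouse, after Salmonella was given to the host. Its 7 members, Slfn1, Slfn2, Slfn3, Slfn4, Slfn5, Slfn8 and Slfn9, were taken by gene symbol from 18609 genes listed in every library, and all 7 were among the 12164 genes that passed the filter on low values. The family was selected on measured values, since Slfn4 was known to be higher after Salmonella in wild-type hosts while most interferon-stimulated genes were not. That contrast is therefore described for the members by sizes and intervals, with no p-value, and its count of calls stands only beside that of all genes.

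Schlafen genes are a rodent-expanded family named for the growth arrest that Slfn1 causes in T cells, and several members are induced by type I interferon or by lipopolysaccharide in myeloid cells and lymphocytes. Slfn1 and Slfn2 encode short proteins, Slfn3 and Slfn4 intermediate proteins, and Slfn5, Slfn8 and Slfn9 long proteins that carry a helicase-like region. TLR4, the host gene deleted in the study, encodes the receptor for lipopolysaccharide of Gram-negative bacteria such as Salmonella.

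The tumours grew in wild-type C57BL/6 mice or in TLR4 knockout C57BL/6 mice, and each host received PBS or Salmonella intravenously 1 day before the tumour was taken. Every group (wild type with PBS, wild type with Salmonella, knockout with PBS, knockout with Salmonella) held 3 libraries of total tumour RNA, titled F-1, M-1 or M-2. The MC38 cells were the same line in all groups and are not stated to lack Tlr4, so the deletion is that of the host. Whether mates of a group are from different animals is not stated; p-values therefore reflect library-to-library spread, some of which could be technical. In bulk tumour RNA, fewer cells of a type and less RNA per cell cannot be told apart.

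Libraries held 30508678 to 38758885 fragments on listed genes, and a single fragment of a 1 kb gene was worth 0.0258 to 0.0328 FPKM (fragments scaled by gene length and library total). The members held 293 to 26543 fragments each per library. Tlr4 was at 2.48 to 2.58 FPKM in wild-type hosts with PBS, 2.58 to 3.78 with Salmonella, 1.59 to 3.15 in knockout hosts with PBS and 1.72 to 1.96 with Salmonella; its RNA was present in every library labelled knockout, and which exons were deleted is not given. The tumour epithelial list (8 genes) summed to 0.723 to 4.58 FPKM, with Krt20 the only member tested, so the epithelial markers that would define a colon cancer line were near 0. Libraries F-1 and M-1 of the wild-type Salmonella group stood apart in their scaling factors, 0.851 and 0.853 against 0.997 to 1.05 elsewhere. With FPKM as deposited, the median of all genes in wild-type hosts after Salmonella moved from -0.01 to -0.19 (log2), and the share of called genes that were higher fell from 52.2% to 30.8%.

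The members lie together on chromosome 11, within 264 kb from 82951349 to 83215154 in GENCODE M21 (GRCm38; the authors' build is not stated). Slfn5, at 82951349 to 82964840 on the plus strand, overlaps the antisense gene Slfn5os in 559 exonic bases, 8.84% of its exonic length; no strand setting is given, so reads of the pair cannot be told apart. Slfn9 (82978390 to 82991830) and Slfn8 (83002158 to 83020810) follow on the minus strand. Slfn2 (83065112 to 83070678), Slfn1 (83116849 to 83122670), Slfn4 (83175186 to 83190216) and Slfn3 (83191330 to 83215154) are on the plus strand, and only 1113 bases separate Slfn4 from Slfn3. Of the 50-base words in Slfn4 transcripts, 8.15% also occur in another family transcript, against 14.6% for Slfn8, 11.2% for Slfn9, 7.39% for Slfn3, 4.27% for Slfn2, 0.606% for Slfn1 and 0 for Slfn5. Fragments in these stretches could be split or dropped by the authors' counting, so small differences between neighbours are uncertain.

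The windows around the gene starts are shown because the members moved in separate sets. They are RefSeq promoters of GRCm38.p6, with 250 bases before and 50 bases from a transcript start, read on the gene's strand. All 7 members matched, Slfn8 with 2 windows. The Slfn5 window is built on a start at 82952102, 753 bases inside the gene as annotated, so it does not cover the outermost Slfn5 start. The other windows printed lie at the outermost start of their gene in at least 1 of the 2 annotations. An interferon-stimulated response element, taken as GAAA, then 2 bases of any kind, then GAAA again and searched on both strands, was present in the windows of Slfn5, Slfn8 and Slfn9 and absent in those letters from the windows of Slfn1, Slfn2, Slfn3 and Slfn4. It occurred in 3.44% of all 32851 promoter windows and in those of 14 of 24 type I interferon-stimulated genes with a window (34 listed). In the first set of sequences, capitals mark this element, which begins 45 bases before the start of the window's transcript in Slfn9, 48 in Slfn8 (136 in its other window, built on a start 88 bases further in) and 155 in Slfn5.

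Slfn9, chr11:82991781-82992080, minus strand: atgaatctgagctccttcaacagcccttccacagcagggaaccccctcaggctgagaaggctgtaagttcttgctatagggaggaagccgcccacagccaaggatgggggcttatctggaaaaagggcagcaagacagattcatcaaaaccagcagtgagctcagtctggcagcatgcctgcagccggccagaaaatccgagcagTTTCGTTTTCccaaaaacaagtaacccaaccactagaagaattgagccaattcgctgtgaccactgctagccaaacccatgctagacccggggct
Slfn8, chr11:83020761-83021060, minus strand: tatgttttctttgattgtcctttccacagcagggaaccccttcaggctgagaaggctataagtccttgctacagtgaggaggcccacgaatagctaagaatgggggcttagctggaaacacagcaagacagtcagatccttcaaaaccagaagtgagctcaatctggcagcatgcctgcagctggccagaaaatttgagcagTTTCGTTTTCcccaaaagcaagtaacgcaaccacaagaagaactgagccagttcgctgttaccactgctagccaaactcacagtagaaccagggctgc
Slfn5, chr11:82951852-82952151, plus strand: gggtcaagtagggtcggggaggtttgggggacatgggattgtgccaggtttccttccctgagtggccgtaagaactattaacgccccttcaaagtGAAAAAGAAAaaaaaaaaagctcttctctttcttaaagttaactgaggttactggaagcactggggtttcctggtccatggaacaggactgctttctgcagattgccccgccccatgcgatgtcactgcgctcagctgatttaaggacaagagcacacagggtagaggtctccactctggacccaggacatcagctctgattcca

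The Slfn9 and Slfn8 elements are the same letters at nearly the same distance, and their windows share an unbroken run of 20 bases. The windows of Slfn4, Slfn2 and Slfn1 hold in common the 11-base run ACTTCCTGGAG, which begins 73, 55 and 74 bases before their starts. This run was picked out after the windows and the values had been seen. It is the longest run common to the windows of the 3 members highest in the contrast that chose the family. The run occurred in 24 of the 32851 windows (0.0731%), 3 of them those of these members by construction. No enrichment is read from that share. The Slfn3 window, not printed here, holds its first 9 letters, ACTTCCTGG. That window's longest runs in common were 11 bases with Slfn2 and 9 with Slfn1 and with Slfn4. Capitals mark the 11-base run in the second set.

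Slfn4, chr11:83174936-83175235, plus strand: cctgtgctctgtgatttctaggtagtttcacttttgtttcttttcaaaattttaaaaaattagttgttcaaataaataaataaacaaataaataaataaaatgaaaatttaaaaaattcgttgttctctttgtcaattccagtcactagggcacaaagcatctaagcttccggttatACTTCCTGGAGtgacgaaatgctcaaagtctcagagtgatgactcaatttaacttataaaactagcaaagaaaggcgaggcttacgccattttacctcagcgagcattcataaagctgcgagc
Slfn2, chr11:83064862-83065161, plus strand: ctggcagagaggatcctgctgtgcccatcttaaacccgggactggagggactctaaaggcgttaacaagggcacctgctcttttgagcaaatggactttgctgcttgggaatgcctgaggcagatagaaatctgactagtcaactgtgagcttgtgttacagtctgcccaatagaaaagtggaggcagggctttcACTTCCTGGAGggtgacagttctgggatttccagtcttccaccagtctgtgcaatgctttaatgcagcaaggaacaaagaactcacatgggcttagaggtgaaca
Slfn1, chr11:83116570-83116869, plus strand: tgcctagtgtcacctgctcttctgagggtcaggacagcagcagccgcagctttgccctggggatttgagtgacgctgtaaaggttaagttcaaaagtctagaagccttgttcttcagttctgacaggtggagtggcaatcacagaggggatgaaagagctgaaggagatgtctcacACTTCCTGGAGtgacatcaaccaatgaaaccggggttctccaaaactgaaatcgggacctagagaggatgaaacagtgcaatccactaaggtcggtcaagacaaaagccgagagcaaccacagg

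A gamma-activated site spelled TTCNNNGAA, which reads alike on both strands, was in none of the members' windows and in 8.3% of all windows. An NF-kB motif was matched in the windows of Slfn1 and Slfn9 and in 4.51% of all windows. None of these matches overlapped another. A match describes letters and is not evidence of binding.

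Without bacteria, Slfn2 was the highest member in every PBS library. In wild-type hosts with PBS its mean was 36.8 ± 1.59 FPKM (SD, n = 3), and Slfn8, Slfn1, Slfn5, Slfn9, Slfn4 and Slfn3 followed between 11.1 ± 2.06 and 6.77 ± 1.0 FPKM. Of these neighbours, Slfn8 and Slfn1, Slfn5 and Slfn9, Slfn9 and Slfn4, and Slfn4 and Slfn3 overlapped in range, while Slfn1 (10.5 to 11 FPKM) lay above Slfn5 (7.71 to 9.78 FPKM). The order of the levels rests on the gene lengths behind FPKM, which were 10874 bp for Slfn9 and 1816 bp for Slfn3, where GENCODE M21 exons cover 5965 and 3411 bp. For the other 5 members the length used was within a few percent of the annotated one.

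**Figure D1:**
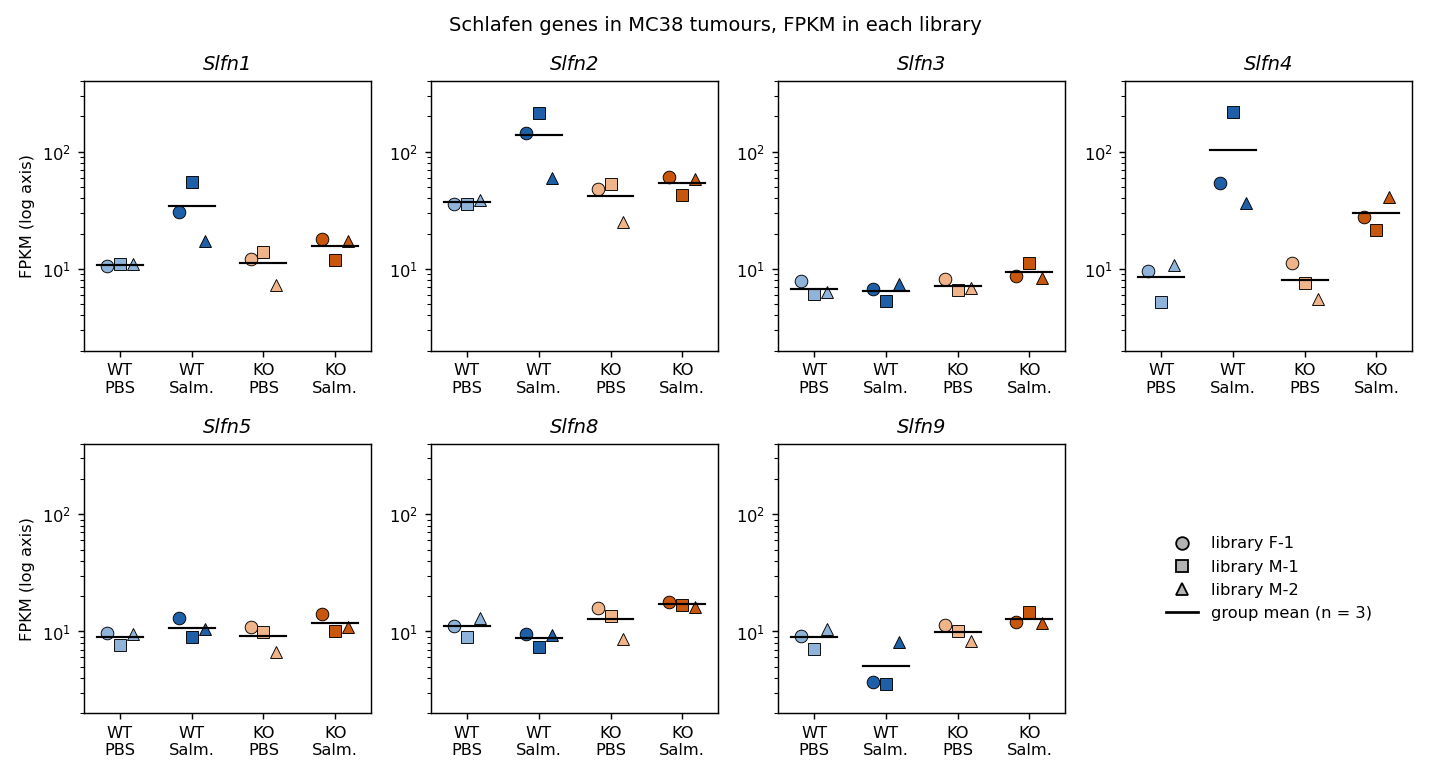
FPKM of each Schlafen gene (log axis) in the 12 libraries, with 1 symbol per library and a bar at each group mean (n = 3). Slfn1, Slfn2 and Slfn4 are higher in all 3 wild-type Salmonella libraries than in the wild-type PBS libraries, and Slfn9 is lowest in libraries F-1 and M-1 of the wild-type Salmonella group.

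Salmonella in wild-type hosts, the contrast used to choose the family, divided its members. Slfn4, Slfn2 and Slfn1 were higher in every library, Slfn3, Slfn5 and Slfn8 overlapped their PBS levels in FPKM as deposited, and Slfn9 was lower in both F-1 and M-1. The fit over all genes (limma, Benjamini-Hochberg adjustment) called 35.6% of genes tested in either direction, and among the members 3 higher and 1 lower. That count is no test of the members, since the contrast chose them, and nothing is read from it.

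Slfn4, which macrophages induce on lipopolysaccharide and which marks immature myeloid cells in the infected mouse stomach, was at 9.67, 5.17 and 10.7 FPKM in the wild-type PBS libraries (F-1, M-1, then M-2). After Salmonella the same labels stood at 53.8, 218.8 and 36.3 FPKM. The groups did not overlap, and M-1 stood far above the other Salmonella libraries. The log2 difference was 3.32 (SE 0.61, 95% interval 1.97 to 4.68), and 2.52 without M-1.

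Slfn2, needed for T cell and monocyte quiescence in mice, was at 36.0, 35.8 and 38.6 FPKM with PBS and at 145.5, 213.9 and 60.1 FPKM with Salmonella. All 3 Salmonella libraries were above all 3 PBS libraries, with M-2 the nearest to them. The log2 difference was 1.93 (SE 0.46, 95% interval 0.91 to 2.95), a fold of 3.8, and the leave-one-out values ran from 1.49 to 2.54.

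Slfn1, the founding member, was at 10.5, 10.9 and 11 FPKM with PBS and at 30.3, 55.5 and 17.2 FPKM with Salmonella. Its libraries kept the order of Slfn2, highest in M-1 and lowest in M-2, and the groups did not overlap. The log2 difference was 1.66 (SE 0.41, 95% interval 0.75 to 2.56), a fold of 3.16.

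The remaining members differed less between these groups. Slfn9, a long member, was at 9.20, 7.07 and 10.5 FPKM with PBS and at 3.69, 3.59 and 8.06 FPKM with Salmonella. Libraries F-1 and M-1 were below every PBS library and M-2 was within their range. The log2 difference was -0.64 (SE 0.21, 95% interval -1.11 to -0.18).

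Slfn8, the other long member with the same letters in its response element, was at 11.2, 8.94 and 13.1 FPKM with PBS and at 9.57, 7.34 and 9.29 FPKM with Salmonella, and the groups overlapped. Its log2 difference was -0.13 (SE 0.20, 95% interval -0.56 to 0.29). Slfn5, a nuclear long member known for interferon induction, gave 0.43 (SE 0.20, 95% interval -0.02 to 0.87). Slfn3, which has been tied to enterocyte differentiation in rodents, gave 0.11 (SE 0.14), and -0.07 with FPKM as deposited. In FPKM as deposited the group ranges of Slfn5 and Slfn3 overlapped as well. On the scaled log2 values of the fit Slfn5 did not overlap, at 3.41 to 3.98 with Salmonella and 2.98 to 3.32 with PBS.

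**Figure D2:**
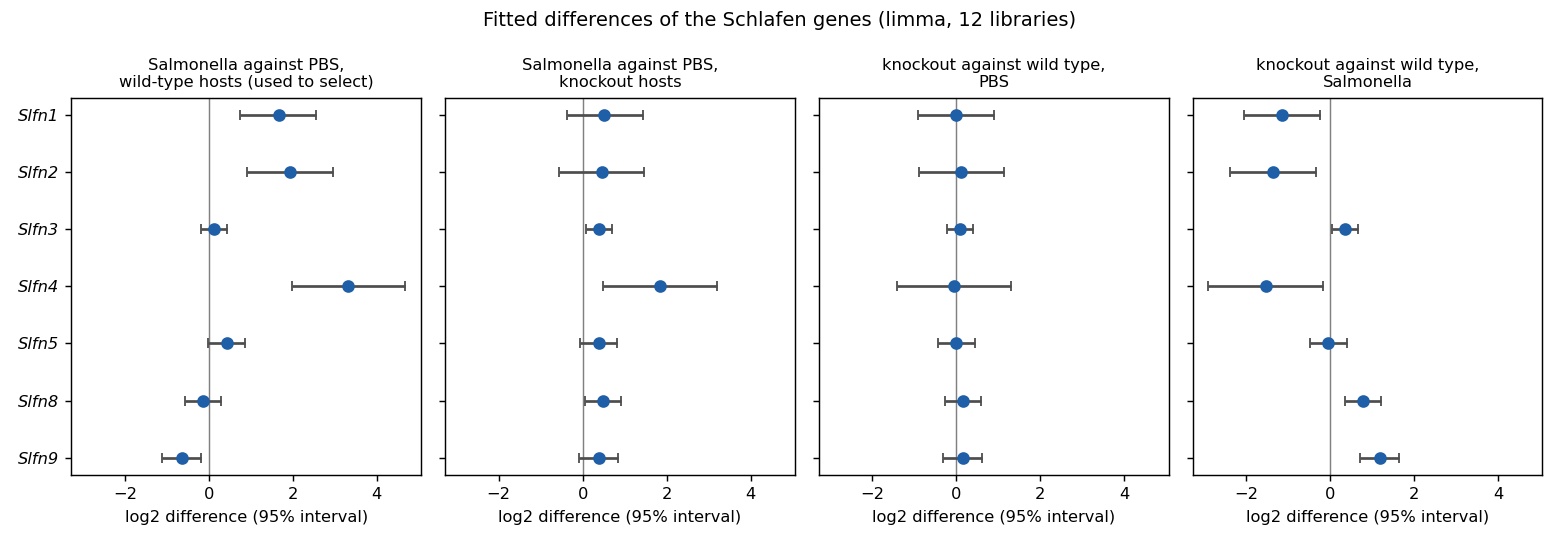
Fitted log2 differences of the 7 members in 4 comparisons, with points at the estimate and bars for the 95% interval (limma, 12 libraries). The wild-type Salmonella contrast at left was used in choosing the family; in knockout hosts all 7 estimates are positive, and under PBS all intervals include 0.

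The composition of Schlafen RNA shifted with these changes. Summed over members, FPKM was 81.6 to 99.8 in wild-type PBS libraries and 148.9 to 513.4 after Salmonella, and 68.0 to 118.0 and 128.5 to 164.2 in the knockout groups. Slfn4 made up 6.34% to 10.8% of the sum in wild-type PBS libraries and 20.5% to 42.6% after Salmonella. In knockout hosts its share was 6.59% to 9.41% with PBS and 16.6% to 24.7% after Salmonella, so the Slfn4 share separated Salmonella from PBS libraries in both hosts. Slfn1 kept a share of 9.16% to 13.4% in all 12 libraries. Slfn2 was the highest member in every library except wild-type Salmonella M-1, where Slfn4 was.

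**Figure D3:**
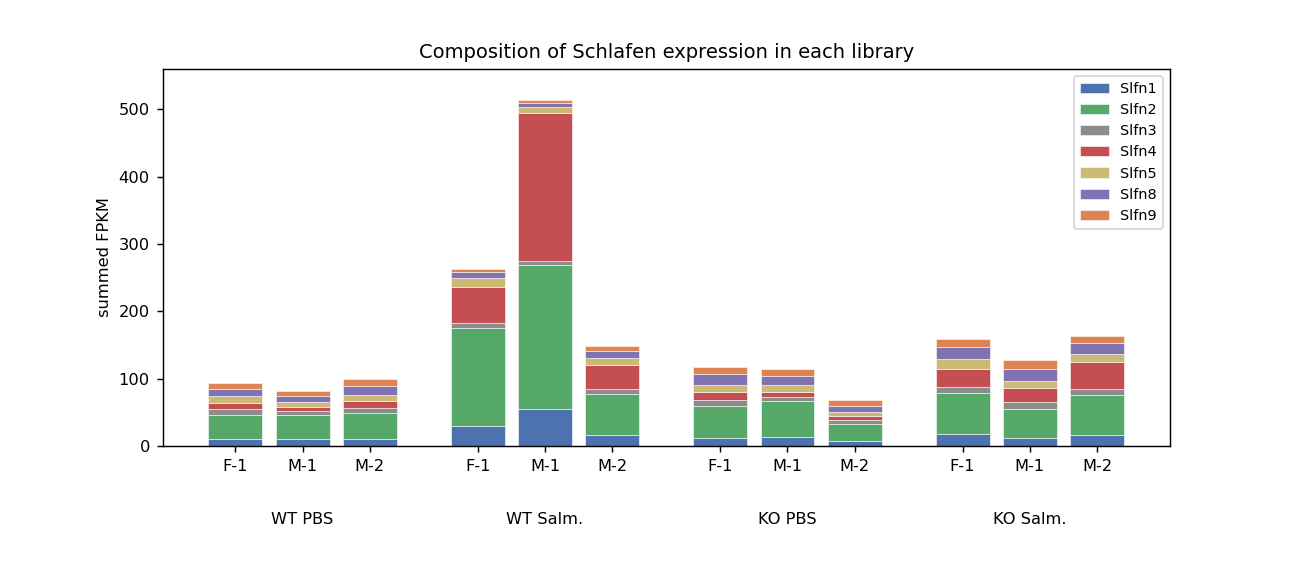
Summed FPKM of the 7 Schlafen genes in each library, stacked by gene. The sum is highest in wild-type Salmonella M-1 (513.4), where Slfn4 and Slfn2 make up most of the bar, and the knockout Salmonella libraries reach 128.5 to 164.2.

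Salmonella in knockout hosts was not used to choose the family and was tested for every member. None of the 7 members passed limma with Benjamini-Hochberg adjustment, beside 0.773% of all genes tested; 3 had an unadjusted p under 0.05, and 0 passed in voom. All 7 estimates were positive, with a median of 0.45 (log2) beside 0.003 for all genes, and 4 members did not overlap between groups, against 29.4% of all genes tested.

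Slfn4 was at 11.1, 7.54 and 5.55 FPKM in the knockout PBS libraries (F-1, M-1, then M-2) and at 27.4, 21.4 and 40.6 FPKM after Salmonella. Each Salmonella library was above every PBS library. The log2 difference was 1.85 (SE 0.61, 95% interval 0.49 to 3.21, limma adjusted p = 0.155), a fold of 3.6 that did not pass the threshold. Its estimate was 1.62 to 2.09 over the libraries left out in turn.

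Slfn8 stood at 15.9, 13.6 and 8.57 FPKM with PBS and at 17.8, 16.9 and 16.3 FPKM with Salmonella, and the ranges did not overlap (log2 difference 0.48, SE 0.20, limma adjusted p = 0.212). Slfn9 stood at 11.4, 10.1 and 8.28 FPKM with PBS and at 12, 14.6 and 11.8 FPKM with Salmonella, again without overlap (0.38, SE 0.21, adjusted p = 0.354). Slfn3 was the remaining member without overlap, at 6.56 to 8.23 FPKM with PBS and 8.32 to 11.1 FPKM with Salmonella (0.38, SE 0.14, adjusted p = 0.19). The 95% intervals were 0.05 to 0.91 for Slfn8, -0.08 to 0.84 for Slfn9 and 0.07 to 0.69 for Slfn3, and none passed after adjustment.

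The pair of short members did not separate the knockout groups. Slfn2 was at 48.1, 52.9 and 25 FPKM with PBS and at 61.1, 42.6 and 58.9 FPKM with Salmonella. Slfn1 was at 12.2, 13.9 and 7.26 FPKM with PBS and at 17.8, 11.8 and 17.2 FPKM with Salmonella. For both, M-1 with PBS was above M-1 with Salmonella, and the log2 differences were 0.45 (SE 0.46, adjusted p = 0.622) and 0.52 (SE 0.41, adjusted p = 0.514) by limma. Slfn5 overlapped as well, at 6.63 to 11 and 10.1 to 14.1 FPKM (0.39, SE 0.20, adjusted p = 0.324).

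Host genotype with PBS alone left the members near each other. None passed limma, where 0% of all genes tested were called (173 genes at an unadjusted p under 0.05 and 0 in voom). The estimates of knockout against wild type ran from -0.06 for Slfn4 (95% interval -1.42 to 1.29) to 0.16 for Slfn8 and Slfn9, with adjusted p = 1.0 for all 7, and every member overlapped between groups. The intervals of Slfn4, Slfn2 and Slfn1 are wide enough to hold a difference of nearly 1 log2 unit in either direction.

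Between hosts given Salmonella the members again differed in direction. Slfn9 and Slfn8 were higher in knockout than in wild-type hosts and passed limma with Benjamini-Hochberg adjustment, 2 of 7 members beside 9.03% of all genes tested; 0 members were called lower. The wild-type Salmonella libraries are shared with the contrast that chose the family, and 3 members did not overlap, against 27.0% of all genes.

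Slfn9 was at 12, 14.6 and 11.8 FPKM in knockout hosts and at 3.69, 3.59 and 8.06 FPKM in wild-type hosts, so that every knockout library was above every wild-type library. The log2 difference was 1.18 (SE 0.21, 95% interval 0.71 to 1.64, limma adjusted p = 0.0156), a fold of 2.26. Slfn8, at 16.3 to 17.8 FPKM against 7.34 to 9.57 FPKM, did not overlap either, with a log2 difference of 0.78 (SE 0.20, 95% interval 0.35 to 1.2, limma adjusted p = 0.0348). Both kept their direction whichever library was left out, at 1.03 to 1.44 for Slfn9 and 0.70 to 0.89 for Slfn8. Slfn9 passed only without wild-type M-2 or without knockout F-1, and Slfn8 only without wild-type M-2.

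Slfn2 and Slfn1 had lower means in knockout hosts but did not pass, at -1.36 (SE 0.46, limma adjusted p = 0.0839) and -1.14 (SE 0.41, adjusted p = 0.096), and their ranges overlapped. Without wild-type M-2, the library where both were lowest, the estimates were -1.97 (adjusted p = 0.00159) and -1.65 (adjusted p = 0.00386) and passed. Over all genes that fit called 4595, against 1099 with every library. Slfn4 was at 27.4, 21.4 and 40.6 FPKM against 53.8, 218.8 and 36.3 FPKM, with overlap, and its difference of -1.54 (95% interval -2.9 to -0.18) is given without a test. It was -0.73 without wild-type M-1. Slfn3 gave 0.35 (SE 0.14, adjusted p = 0.123) and Slfn5 -0.04 (SE 0.20, adjusted p = 0.913), and the Slfn5 estimate was 0.12 with FPKM as deposited.

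The difference of the Salmonella responses between hosts was also tested. By limma 0 members passed the interaction, where 0.0247% of all genes tested were called, with 3 members at an unadjusted p under 0.05 and 0 passing in voom. The largest tested estimates were -1.48 for Slfn2 (SE 0.65, adjusted p = 0.336), -1.14 for Slfn1 (SE 0.58, adjusted p = 0.376) and 1.02 for Slfn9 (SE 0.30, adjusted p = 0.238). Without wild-type Salmonella M-2, Slfn2 (-2.09, adjusted p = 0.0114), Slfn1 (-1.64, adjusted p = 0.0286) and Slfn9 (1.28, adjusted p = 0.00449) passed. Over all genes that fit called 2236, against 3 with every library, so the gain was not particular to the members. Slfn4 gave -1.47 (95% interval -3.39 to 0.44), without a test, and -0.67 without wild-type Salmonella M-1.

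Beside the family, the type I interferon-stimulated list (34 genes, 32 tested) hardly moved in wild-type hosts. By limma 1 gene rose, Rsad2, an antiviral enzyme (log2 difference 0.73, adjusted p = 0.0307), and 2 fell, Ifi44 (-0.64, adjusted p = 0.0294) and Eif2ak2, the double-stranded RNA kinase PKR (-0.40, adjusted p = 0.0418). The median was -0.08 beside -0.01 for all genes. With FPKM as deposited 0 rose and 7 fell, and without wild-type Salmonella M-2 11 rose and 2 fell. Slfn4, Slfn2 and Slfn1 lay above all 32 of these genes, and Slfn9 lay just below the lowest. The highest value of the list was 0.75, for the ubiquitin-like modifier Isg15 (limma adjusted p = 0.0574). The family was chosen with the rise of Slfn4, and the lack of one in most interferon-stimulated genes, already known. The calls and positions of this contrast are therefore a description and no test.

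In knockout hosts 1 of the 32 genes rose after Salmonella and 0 fell, with a median of 0.47 beside 0.003 for all genes. Slfn4, at 1.85, was again above all 32, whose highest value was 1.12, while the other 6 members lay within the list. Between hosts under Salmonella 18 of the 32 genes were higher in knockout hosts and 0 lower (16 in voom), with a median of 0.72 beside 0.015 for all genes. The count ran from 0, without wild-type Salmonella F-1 or knockout Salmonella M-1, to 18 without wild-type Salmonella M-2, and the median stayed between 0.62 and 0.78 over the libraries left out. Slfn9 lay above 30 of the 32, Slfn8 above 21 and Slfn3 above 7. Slfn1, Slfn2 and Slfn4 lay below all of them, and Slfn5 stood at the lower edge of the list, whose lowest value was -0.04.

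**Figure D4:**
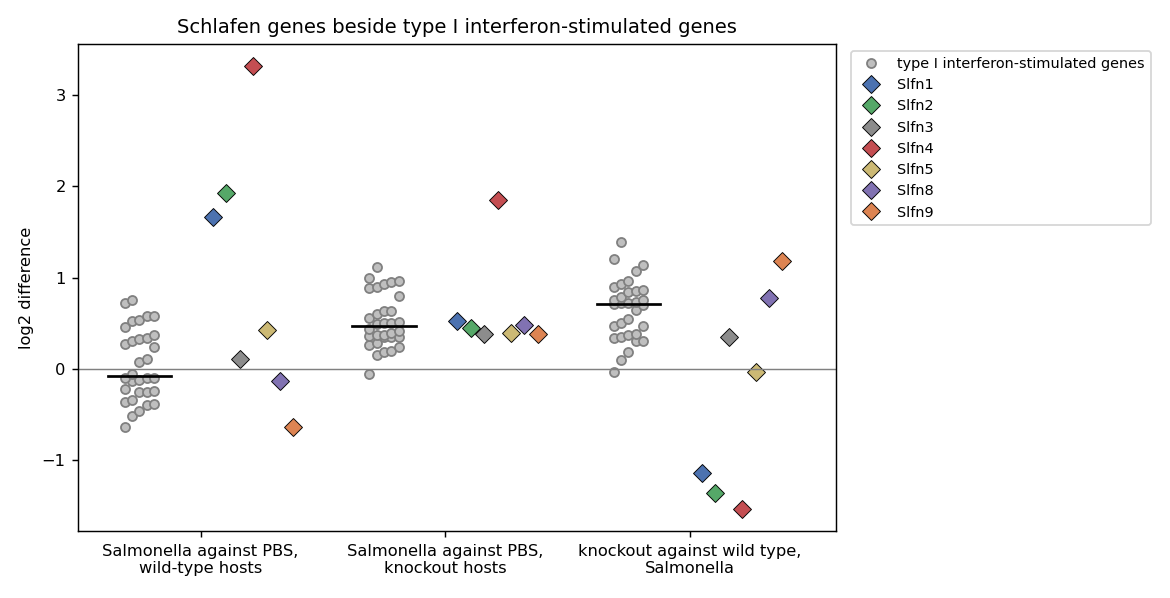
Log2 differences of 32 type I interferon-stimulated genes (grey, bar at the median) and of the 7 Schlafen genes (diamonds) in 3 comparisons. Slfn4 is above the whole list after Salmonella in both hosts, and in wild-type hosts this was known when the family was chosen. Between hosts under Salmonella, Slfn3, Slfn8 and Slfn9 lie with the list, Slfn1, Slfn2 and Slfn4 lie below it, and Slfn5 is at its lower edge.

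Of 20 tested interferon ligands, receptors and signalling genes, 2 rose and 2 fell in wild-type hosts and none passed in knockout hosts by limma (0 in voom). Irf7, which amplifies type I interferon, was at 90.8 ± 13.2 FPKM with PBS and 110.8 ± 18.5 FPKM with Salmonella in wild-type hosts (n = 3; limma adjusted p = 0.0815). Of 18 interferon-gamma-induced genes, 6 fell and 0 rose in wild-type hosts (median -0.61), among them Psmb8, an immunoproteasome subunit (-0.58, limma adjusted p = 0.0409). In knockout hosts the median of these genes was -0.60 and none passed.

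The genes most like each member were taken by Pearson correlation of log2 values over the 12 libraries, among 10124 genes, as a description; the 4 groups and the wild-type Salmonella libraries carry much of each value. For Slfn4 they were Hcar2, a metabolite receptor of myeloid cells (r = 0.984), Il1f9, an interleukin-36 cytokine (0.981), Hdc, the histamine-forming enzyme (0.981), Stfa2l1, a neutrophil stefin (0.975), the chemokine Ccl3 (0.972) and the cytokine Il1b (0.97). For Slfn1 and Slfn2 they were in both cases the death receptor Fas (0.99 and 0.988) and the kinase Pim1 (0.988 and 0.984). For Slfn9 they were Eif2ak2 (0.978) and the double-stranded RNA sensor Tlr3 (0.956), and for Slfn8 the interferon-stimulated Ifit2 (0.958) and Parp14 (0.922). Slfn5 went with the cytokine Lif (0.931) and Ifi209 (0.927), and Slfn3 with the adaptor subunit Ap3m2 (0.898) and Phf11d (0.894).

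Among the members themselves, Slfn1 and Slfn2 were nearly parallel (r = 0.99 over 12 libraries, and 0.98 for deviations from group means). Slfn4 correlated with Slfn1 at 0.93 and with Slfn2 at 0.91, and Slfn8 with Slfn9 at 0.74. Slfn9 ran against Slfn1 (-0.67) and Slfn2 (-0.68). Within groups, Slfn5 followed Slfn8 most closely (0.87 for deviations, against 0.40 for Slfn8 and Slfn9).

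Markers of other cell types moved with the members that were higher. The neutrophil list (20 genes, all tested) rose in wild-type hosts in 20 of 20 genes by limma (median 4.33, 19 in voom) and in knockout hosts in 8 (median 1.75, 1 in voom). With only the PBS groups 11 of the 20 passed the filter on low values, and with only the knockout groups 17. The other genes were tested because they were high after Salmonella, so the count of 20 is in part fixed by the filter. Between hosts under Salmonella 15 of the 20 were lower in knockout hosts, and 0 passed without wild-type Salmonella F-1 and 18 of 19 without M-2. Summed FPKM was 34.8 to 45.1 in wild-type PBS libraries and 4107.4, 21658.7 and 3332.2 in wild-type Salmonella F-1, M-1 and M-2. It was 29.5 to 44.6 in knockout PBS libraries and 983.8, 620.3 and 1167.5 in knockout Salmonella F-1, M-1 and M-2. No gene of the list was at 0 in all 12 libraries. The neutrophil sum and Slfn4 had the same order of libraries within both Salmonella groups, and Stfa2l1 and Hdc, near the top of the genes most like Slfn4, are on the list. The part of neutrophils in the Slfn4, Slfn2 and Slfn1 values was not tested.

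**Figure D5:**
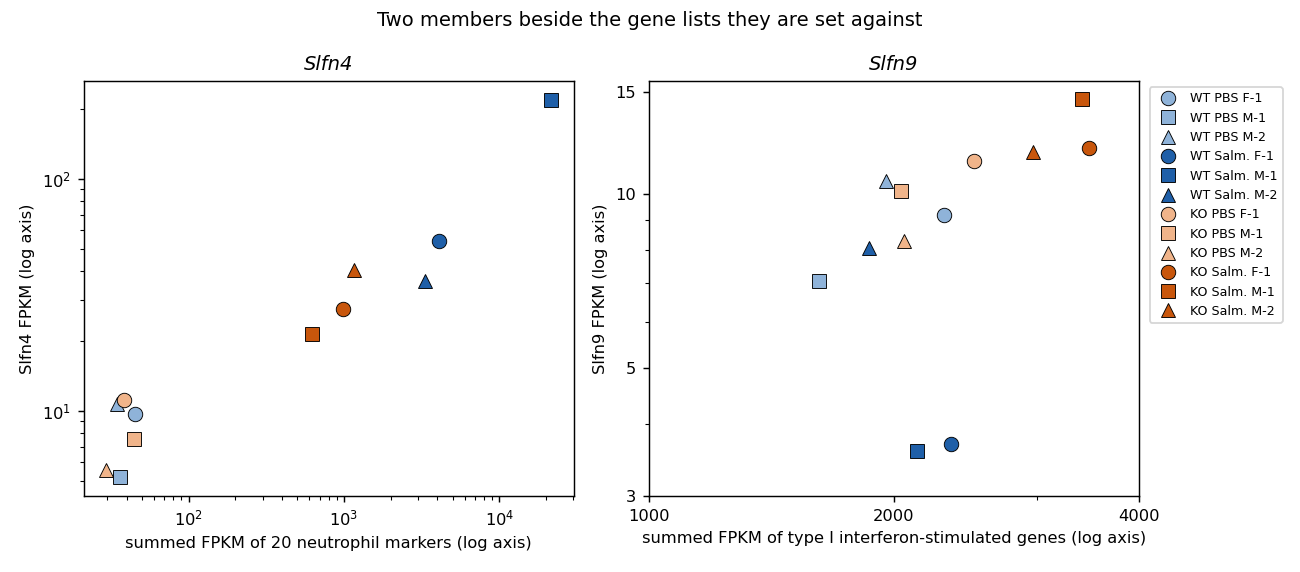
Left, Slfn4 FPKM against the summed FPKM of 20 neutrophil markers; right, Slfn9 FPKM against the summed FPKM of 32 type I interferon-stimulated genes, 1 point per library on log axes. Slfn4 and the neutrophil sum are highest in wild-type Salmonella M-1, and Slfn9 is lowest in libraries F-1 and M-1 of that group, whose interferon sums (2349.9 and 2133.3) lie among those of the PBS libraries.

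In FPKM as deposited, the summed interferon-stimulated list was 1616.6 to 2308.6 in wild-type PBS libraries and 1864.4 to 2349.9 in wild-type Salmonella libraries. The list summed to 2042.5 to 2507.8 in knockout PBS and 2964.8 to 3480.7 in knockout Salmonella libraries. Its knockout Salmonella libraries were thus the highest, as for Slfn8 and Slfn9. Of the other lists in wild-type hosts, endothelial markers rose in 11 of 12 genes, and erythroid and platelet markers in 7 of 8. Of monocyte and macrophage markers 4 rose and 4 fell out of 20. Of T and NK cell markers 2 of 14 fell, with summed FPKM of 24.2 to 60.1 after Salmonella and 43.1 to 76.6 with PBS. Of fibroblast and pericyte markers 4 rose and 1 fell out of 10, and of dendritic cell markers 1 rose and 1 fell out of 5. None of 4 tested B cell markers passed limma (0 in voom), and Fcmr was listed at 0 throughout. The part of these cell types in the members' values was not tested.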

How the data were processed

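RNA of MC38 tumours was sequenced as 12 libraries in 4 groups of 3, grouped by the genotype and treatment labels. TRIzol extraction and the VAHTS Universal V6 library kit are recorded, per the labels' protocols. The submitters' processing notes list HISAT2, HTSeq and fastp with no version; no source used here gives the build or the strand setting. The authors deposited 1 table per library, whose values behave as FPKM: for 100.0% of 18609 genes they were whole fragments at 1 gene length, within 0.01 fragments. A count of 0 allows up to 3 fragments, 0.0774 to 0.0983 FPKM in a 1 kb gene, for counting error only. No libraries of a group agreed within sampling noise (chi-square per gene 17.6 or more).

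Limma 3.58.1 in R 4.3.3 (empirical Bayes, trend and robust) was run on log2(FPKM / scaling factor + 0.5), computed here from the deposited FPKM, for genes that reached 0.5 FPKM in 3 or more libraries; the model had 4 group means over 12 libraries and 8 residual degrees of freedom. Fold changes on this scale understate the change of low genes. Scaling factors were trimmed means of log ratios, leaving out 30% by ratio and 5% by level at each end. Tests were two-sided, adjusted by Benjamini-Hochberg over 12164 genes, with a threshold of 0.05, in 5 comparisons. The fit was tested on simulated data. The members and the 12 gene lists were chosen with earlier results of these data known. Genes are named by rule: the members, Tlr4, the 6 genes most like Slfn4 and 2 most like each other member, the extremes of the interferon-stimulated list (up to 3 at each end) and up to 2 of the highest genes of other lists; 1 gene that the rule names is not reported here, and not all others are printed. Alternatives were median-of-ratios scaling, FPKM as deposited, pseudocounts of 0.1 and 1, no filter, only the groups compared, a replicate block, voom on recovered fragments, and each library left out. Promoters were read from RefSeq (GRCm38.p6) and positions from GENCODE M21 (GRCm38). No protein sequences were used here.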

Additional observations from a re-analysis of the deposited data

How the results depend on the processing

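Of 525 values of the members under alternatives, 477 kept their direction and side of the threshold, or moved by less than the spread between replicates. Of the others 24 reversed, 12 lost a call, 5 gained one and 7 moved. Where members had no test, a change of sign was counted as reversed only for a called difference. Slfn3 in wild-type hosts, at 0.111 and at -0.069 with FPKM as deposited, is therefore among the 7. In wild-type hosts after Salmonella, the contrast that chose the family, the count of 4 members was 2 to 4 with a library left out (2 without wild-type Salmonella F-1) and is given as a description only. The 2 called between hosts under Salmonella were 1 without the filter, 0 with only the groups compared and 0 to 5 with a library left out (5 without wild-type Salmonella M-2). The interaction gave 0 to 3 (3 without that library). Between hosts under Salmonella, Slfn8 had a limma adjusted p = 0.0585 without the filter and 0.0708 with only the groups compared. Slfn9 had 0.0833 with only the groups compared.

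All reversals were of differences that were never called. Between hosts under PBS, the leave-one-out log2 differences were -0.181 to 0.252 for Slfn1, -0.075 to 0.447 for Slfn2, -0.004 to 0.203 for Slfn3, -0.369 to 0.152 for Slfn4, -0.134 to 0.202 for Slfn5 and -0.015 to 0.404 for Slfn8. For Slfn5 they were -0.203 to 0.141 between hosts under Salmonella and -0.24 to 0.137 for the interaction, and with FPKM as deposited 0.119 and 0.117. The cause was not tested.

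Counts over all genes moved far more: 4 to 307 calls in knockout hosts after Salmonella, 10 to 4595 between hosts under Salmonella and 2 to 2236 for the interaction with a library left out, and 2049 to 6220 in wild-type hosts. With only the groups compared they were 188, 12 and 2436 in knockout hosts, between hosts under Salmonella and in wild-type hosts. In knockout hosts there were 37 without the filter and 23 in voom; between hosts under Salmonella there were 577 in voom; and the interaction had 6 with FPKM as deposited and 0 in voom. Between hosts under Salmonella, 37.5% of calls were higher, and 58.5% with FPKM as deposited. Replicate labels do not pair the libraries (correlation of same-label deviations -0.332 to 0.396); with the replicate block 45 genes instead of 94 were called in knockout hosts, the count of members in wild-type hosts was 5 instead of 4, and no member's call changed in the comparisons where members were tested. Depth did not limit the members, at 293 or more fragments per library.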

Other observations

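Slfn14, a further family gene that is not a member here, held at most 1 fragment in any library. Among wild-type Salmonella libraries, M-2 and F-1 had neutrophil sums of 3332.2 and 4107.4 FPKM, yet their Schlafen values stood apart: Slfn2 was at 60.1 FPKM in M-2 and 145.5 in F-1, Slfn1 at 17.2 and 30.3, and Slfn9 at 8.06 and 3.69. Slfn4 differed less, at 36.3 and 53.8 FPKM. M-2 was also nearer to the knockout Salmonella libraries in Slfn1 (11.8 to 17.8 FPKM) and Slfn2 (42.6 to 61.1 FPKM) than to F-1 or M-1. These are single libraries, and the cause was not tested.

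Knockout PBS library M-2 had the lowest value of its group for 6 of the 7 members: Slfn1, Slfn2, Slfn4, Slfn5, Slfn8 and Slfn9. Its summed Schlafen FPKM was 68.0, below the other 11 libraries.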
